A study of Mus musculus with 18 samples.

Results

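The gene segments of the mouse T cell receptor were followed across 18 RNA-seq libraries of uterus and ovary. Segments were chosen by name, as variable (V), joining (J) or constant (C) genes of the alpha (Tra), beta (Trb), gamma (Trg) and delta (Trd) chains, with at least 10 counts summed over all libraries. Of 57010 genes in the count tables, 264 matched by name and 172 passed the minimum: 115 alpha, 37 beta, 14 gamma and 6 delta segments. Of the others, 43 had no count and 49 had 1 to 9. At the minimum, 8 segments had exactly 10 counts, and 7 segments just outside it had 8.

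The mice were C57B6/J animals aged 20 to 25 weeks. They were wild type (WT), heterozygous (ARE+/-) or homozygous (ARE-/-) for an allele of Ifng, the interferon-gamma gene, that lacks the AU-rich element of its 3′ untranslated region, a signal for rapid RNA decay. Each of the 3 genotypes gave 3 uterus and 3 ovary libraries of total RNA, sequenced in pairs. The replicate numbers are those of the titles, and Uterus WT 1 and Ovary ARE-/- 6 are marked there as backups. The allele is carried in every cell of the body, so its presence in the tissue is not limited to T cells, and nothing in the labels ties a uterus to an ovary of the same animal.

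A T cell receptor gene is assembled in the thymus by joining a V segment to a J segment (with a D segment between them in the beta and delta chains), and the transcript is then spliced to a C gene. Alpha and beta chains pair in conventional CD4 and CD8 T cells. Gamma and delta chains pair in gamma delta T cells, many of which settle in epithelial and barrier tissues before or around birth. A receptor made of Trgv6 and Trdv4 is known from gamma delta T cells that reside in the reproductive tract. C genes are shared by every receptor of a chain, while each V or J segment marks a part of the repertoire. Constant genes can also be transcribed without a joined V segment.

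The segments differ most in the bases that become the receptor's binding site and its frame. The J segments below carry, in capitals, the conserved run of 4 codons (Phe or Trp, Gly, any, Gly) with which the last framework part begins. They are shown because they are the J members with the most counts in the beta and delta chains, and all 3 beta segments differed between groups. The letters are transcript bases from GENCODE M21, 5′ to 3′, matched by gene identifier, and positions are those of the count tables (GENCODE M32, GRCm39). They lie on the plus strand at chr6:41510798-41510845, chr6:41510935-41510982, chr6:41520744-41520790 and chr14:54374236-54374294.
Trbj1-1: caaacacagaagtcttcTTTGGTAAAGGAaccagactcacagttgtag
Trbj1-2: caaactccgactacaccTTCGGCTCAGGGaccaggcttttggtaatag
Trbj2-7: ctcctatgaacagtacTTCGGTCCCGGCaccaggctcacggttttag
Trdj2: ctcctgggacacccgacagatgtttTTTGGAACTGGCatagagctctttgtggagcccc
The run was present in 44 of the 55 J members and in 31 of the 36 alpha members. Among these, 1 opened with the Trp codon, Traj33, a segment known from the receptor of mucosal-associated invariant T cells.

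The V segments below are given by the last 60 bases of their transcripts, the part that ends in the junction with D or J. Capitals mark the last TGT, the codon of the conserved cysteine that opens the junction. Trdv4 and Trgv6 are the segments of the receptor named above. Trbv12-2, Trbv13-3 and Trbv19 are the beta V segments that edgeR called in ARE-/- against WT uterus, where DESeq2 called further ones. Trav5d-4 had the most counts of the alpha V segments.
Trdv4 (chr14:54312362-54312972): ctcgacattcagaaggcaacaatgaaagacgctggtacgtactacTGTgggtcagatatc
Trgv6 (chr13:19374538-19375099): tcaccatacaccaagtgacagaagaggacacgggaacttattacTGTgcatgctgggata
Trbv12-2 (chr6:41095785-41096298): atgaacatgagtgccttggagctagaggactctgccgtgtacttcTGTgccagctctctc
Trbv13-3 (chr6:41107081-41107519): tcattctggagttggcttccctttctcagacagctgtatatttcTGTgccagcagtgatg
Trbv19 (chr6:41155309-41155982): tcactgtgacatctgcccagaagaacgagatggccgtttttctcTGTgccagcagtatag
Trav5d-4 (chr14:53239170-53239689): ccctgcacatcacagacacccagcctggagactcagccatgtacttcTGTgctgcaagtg
All 6 lie on the plus strand. The alpha locus of this strain holds repeated blocks, named by the letters d and n in the symbols, and 15 pairs of alpha V members (30 of 78) had the same count in every library. In 13 of these pairs the transcripts were identical, Trav5d-4 and Trav5n-4 over 343 of 343 bases. The authors counted a read once for every gene it matched, so the counts of such copies cannot be told apart, and alpha V sums contain those reads more than once.

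Libraries held 33185496 to 49720354 counts, of which 473 to 5063 fell on the segments. Ifng, the altered gene, had 4, 6 and 0 counts in WT uterus, 58, 36 and 70 in ARE+/- uterus, and 96, 130 and 56 in ARE-/- uterus. In ovary it had 4, 0 and 4 counts in WT, 18, 10 and 28 in ARE+/-, and 51, 38 and 50 in ARE-/-. In both tissues the altered genotypes lay above WT without overlap. All 10 genes of an ovary marker list were higher in WT ovary than in WT uterus and all 8 genes of a uterus list were lower. The library Uterus ARE-/- 1 stood apart: its summed fat cell markers were 18343 CPM against 2208 and 1234 in the other ARE-/- uteri and 81.0 to 109 in WT, its summed red cell markers were 7471 CPM against 101 to 232 in WT, and its summed ovary markers 302 CPM against 70.8 to 124 in WT. CPM are counts divided by library size, with sizes scaled by the trimmed mean of M-values (TMM).

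Summed segments of the alpha and beta chains were higher in both altered genotypes than in WT, in both tissues. Summed over alpha members, WT uterus held 1.53 ± 0.58 CPM (SD, n = 3 here and below), ARE+/- uterus 6.61 ± 1.21 and ARE-/- uterus 19.2 ± 3.15, which is 12.5 times the WT mean. The beta sum went from 15.7 ± 1.90 through 30.7 ± 6.84 to 65.4 ± 2.02 CPM, 4.18 times WT. In ovary the alpha sum was 2.90 ± 0.49, 8.60 ± 1.51 and 14.4 ± 6.20 CPM in WT, ARE+/- and ARE-/-, and the beta sum 3.61 ± 0.23, 17.1 ± 5.41 and 34.9 ± 16.9 CPM. Against WT, every ARE+/- and every ARE-/- library lay higher for both sums and in both tissues, and in ovary the altered genotypes overlapped each other. The kind of segment set the size of some ratios to WT: from V segments alone the beta ratios in uterus were 7.89 (ARE+/-) and 18.8 (ARE-/-), and from Trac alone the alpha ratios in ovary were 5.95 and 11.7. In bulk RNA, more cells of a type and more RNA per cell cannot be told apart, and sums carry no test here.

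Gamma and delta sums moved less. In uterus the gamma sum was 8.93 ± 2.24 CPM for WT, 11.2 ± 1.78 for ARE+/- and 22.8 ± 8.92 for ARE-/-, with the ARE-/- libraries above all WT libraries, and in ovary 3.08 ± 0.29, 2.92 ± 0.32 and 6.67 ± 2.22. The delta sum was 8.93, 10.8 and 7.09 CPM in the WT uteri and 2.74, 21.7 and 33.3 CPM in the ARE-/- uteri. The low ARE-/- value is that of Uterus ARE-/- 1, the library with the most fat and red cell transcripts, and the ratio of the ARE-/- to the WT mean was 2.15 with it and 3.07 without it. In ovary the delta sums of 2.67 ± 1.11 CPM in WT and 2.58 ± 0.52 CPM in ARE-/- overlapped.

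**Figure D1:**
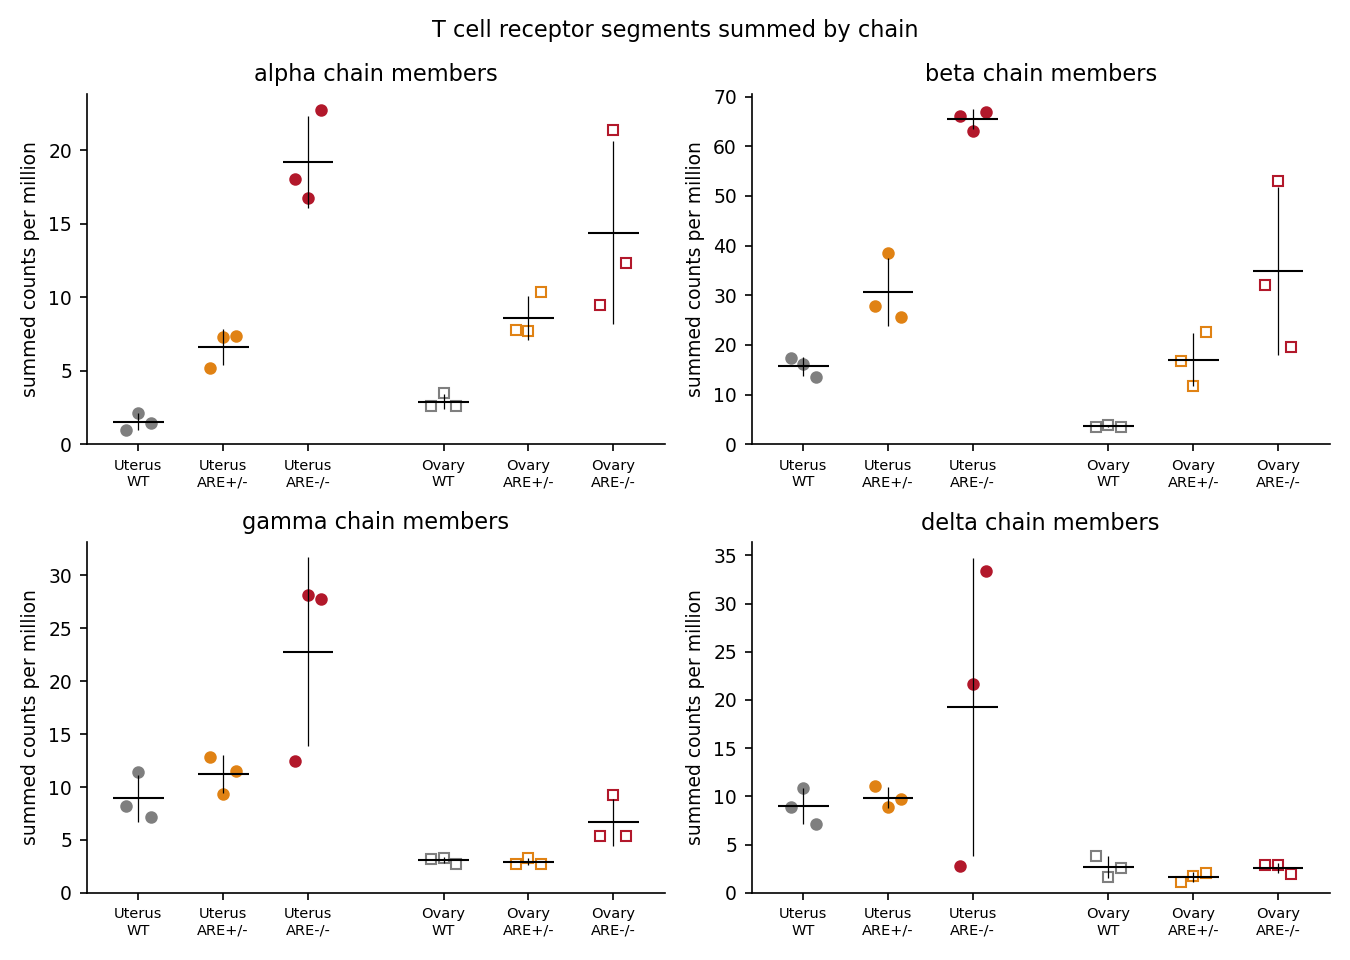
Summed CPM of the alpha, beta, gamma and delta members in each library (points) by tissue and genotype, with group means and SD (lines; n = 3 libraries). Alpha and beta sums of both altered genotypes lay above WT in both tissues, whereas delta sums overlapped between genotypes.

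Among constant genes, Trac, the only alpha C gene (chr14:54457978-54460554), had the steepest rise in uterus. Its counts were 15, 41 and 38 in WT, 137, 149 and 152 in ARE+/- and 383, 410 and 365 in ARE-/- uterus. The 3 genotypes did not overlap. In a quasi-likelihood test over all genes (edgeR, Benjamini-Hochberg adjusted p), Trac rose by 3.84 ± 0.38 log2 units (SE) in ARE-/- against WT uterus, adjusted p = 0.000897, and by 2.27 ± 0.36 in ARE+/-, adjusted p = 0.021. The ARE-/- call held with any of the 9 uterus libraries left out, with log2 changes of 3.55 to 4.02. The ARE+/- call was lost without Uterus WT 1, WT 3, ARE+/- 2 or ARE+/- 3.

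Trac counts in ovary were 35, 10 and 20 in WT, 113, 108 and 178 in ARE+/- and 170, 479 and 124 in ARE-/-. The WT libraries lay below the others, and the altered genotypes overlapped, with Ovary ARE-/- 3 the highest. The rise in ARE-/- ovary was 3.56 ± 0.64 log2 units, adjusted p = 0.00991 (edgeR), and lay between 2.72 and 4.07 with single libraries left out. In ARE+/- ovary the difference was 2.57 ± 0.62, adjusted p = 0.0797 (edgeR), and DESeq2 called it.

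The beta chain has a pair of constant genes, Trbc1 (chr6:41515152-41516281) and Trbc2 (chr6:41523664-41525286), each behind its own cluster of J segments. Trbc2 counts were 263, 245 and 218 in WT, 536, 549 and 389 in ARE+/- and 1355, 1061 and 1030 in ARE-/- uterus, and 59, 55 and 55, then 296, 226 and 408, then 531, 867 and 386 in the same genotypes of ovary. The uterus genotypes did not overlap, and in ovary the altered genotypes overlapped each other and lay above WT. Trbc2 rose by 2.43 ± 0.24 log2 units in ARE-/- uterus, adjusted p = 0.000897, and by 3.39 ± 0.37 in ARE-/- ovary, adjusted p = 0.0008 (edgeR). Both calls held with any single library of the tissue left out.

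Trbc1 counts were 210, 288 and 172 in WT, 447, 450 and 278 in ARE+/- and 465, 575 and 521 in ARE-/- uterus. In ovary they were 34, 49 and 38, then 149, 143 and 171, then 349, 560 and 187. Trbc1 rose by 1.42 ± 0.26 log2 units in ARE-/- uterus, adjusted p = 0.0167, a call that was lost without Uterus WT 1, WT 3 or ARE-/- 3 (highest adjusted p = 0.101), and by 3.17 ± 0.40 in ARE-/- ovary, adjusted p = 0.00183 (edgeR). Beside each other, Trbc1 made up 44.4, 54.0 and 44.1% of the beta constant counts in WT uterus and 25.6, 35.2 and 33.6% in ARE-/- uterus, without overlap. In ovary its share was 36.6, 47.1 and 40.9% in WT and 39.7, 39.2 and 32.6% in ARE-/-, and these overlapped. In ARE+/- ovary, Trbc2 rose by 2.42 ± 0.36, adjusted p = 0.0129, and Trbc1 by 1.88 ± 0.38, adjusted p = 0.0457, while edgeR called neither in ARE+/- uterus, at 1.00 ± 0.23 (adjusted p = 0.0807) and 0.80 (adjusted p = 0.187). Trbc2 was called in ARE+/- uterus by DESeq2, and by edgeR without Uterus ARE-/- 1. Leaving out Ovary WT 1, WT 2, WT 3 or ARE+/- 1 ended both ovary calls, and leaving out Ovary ARE+/- 2, ARE+/- 4 or ARE-/- 2 ended that of Trbc1.

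Per kilobase of transcript, the alpha and beta constant genes can be set side by side. In WT uterus the level of Trac was 0.05, 0.11 and 0.14 times that of Trbc1 plus Trbc2, in ARE+/- uterus 0.20, 0.22 and 0.33, and in ARE-/- uterus 0.32, 0.37 and 0.35 times. WT uterus thus lay below both other genotypes. In ovary the ratio was 0.56, 0.14 and 0.32 in WT, 0.38, 0.43 and 0.47 in ARE+/-, and 0.28, 0.49 and 0.33 in ARE-/-, with full overlap.

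**Figure D2:**
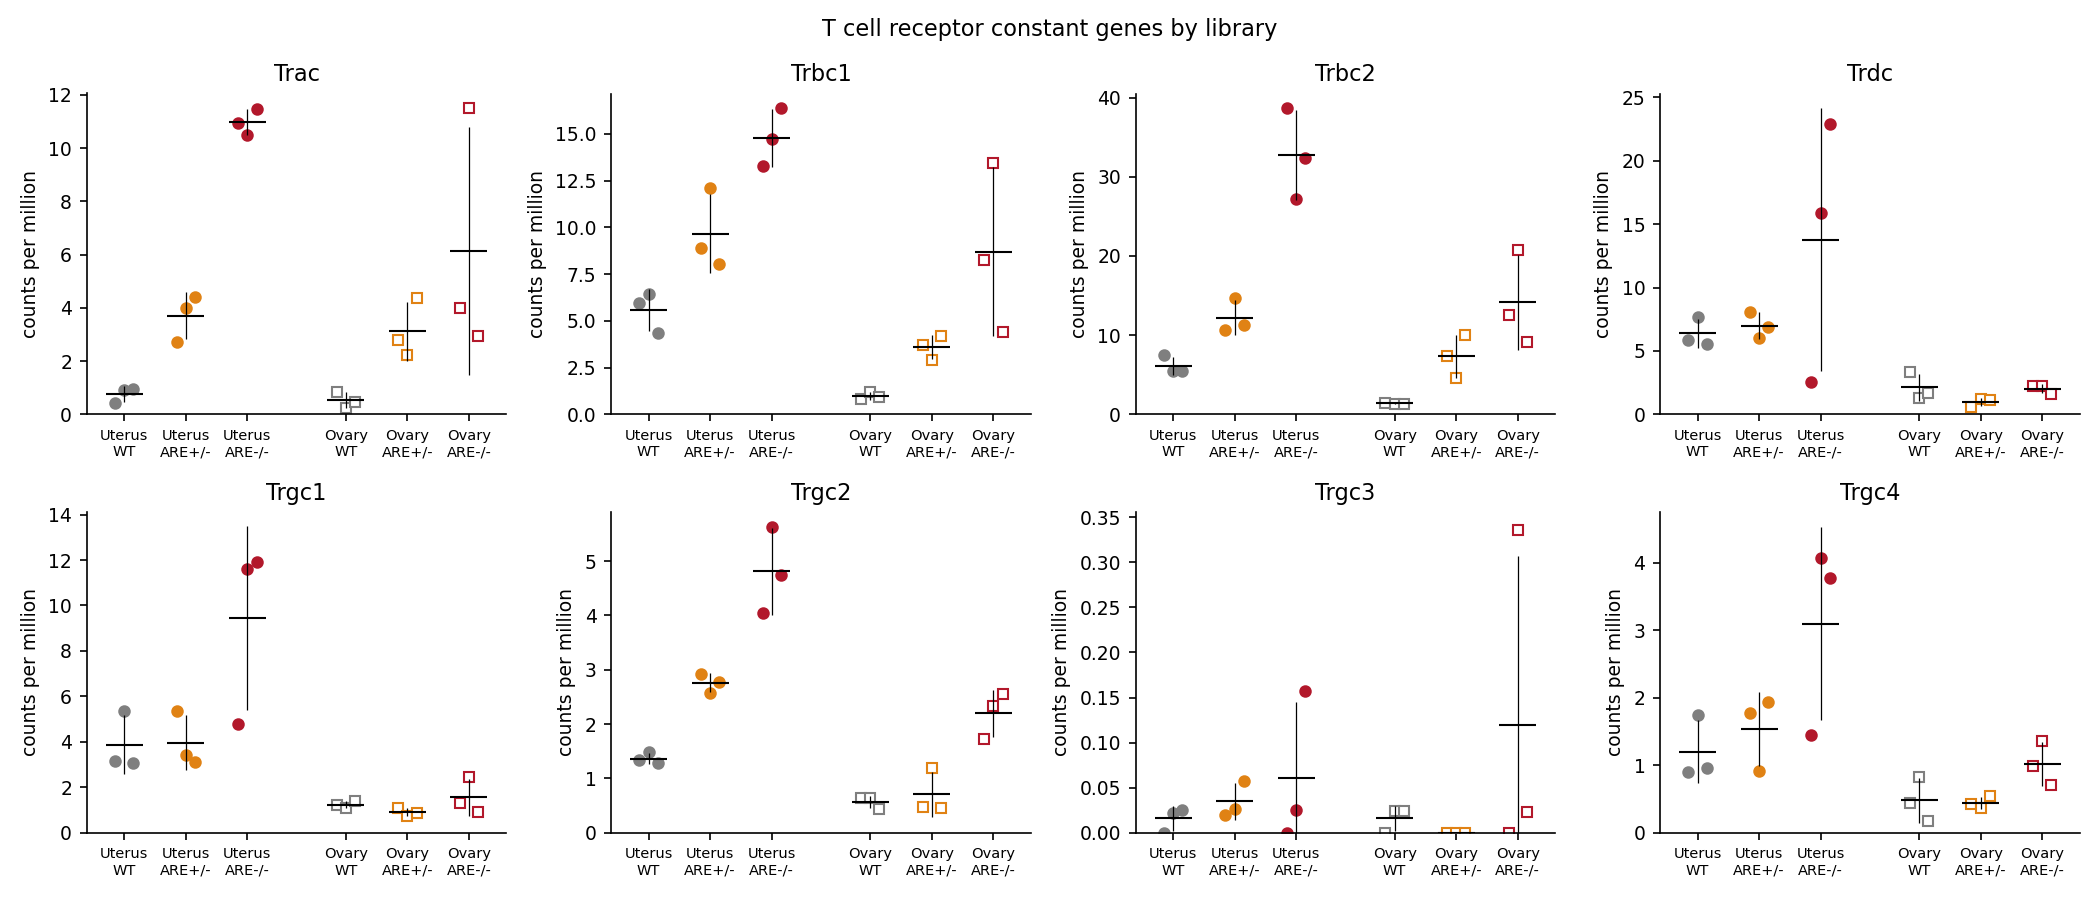
CPM of the constant genes Trac, Trbc1, Trbc2, Trdc, Trgc1, Trgc2, Trgc3 and Trgc4 in each library (points) by tissue and genotype, with group means and SD (lines; n = 3 libraries) on axes from 0. Trac, Trbc1, Trbc2 and Trgc2 separate the 3 genotypes in uterus, and Trdc is lowest among uteri in 1 ARE-/- library.

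The gamma constant genes lie in separate clusters on chromosome 13 and serve different V segments. Trgc2 (chr13:19488819-19491721, minus strand) had 47, 66 and 51 counts in WT, 147, 96 and 96 in ARE+/- and 142, 220 and 151 in ARE-/- uterus, and 26, 26 and 18, then 19, 58 and 19, then 73, 97 and 108 in ovary. The ARE-/- libraries lay above WT in both tissues. Trgc2 rose by 1.83 ± 0.29 log2 units in ARE-/- uterus, adjusted p = 0.0093, and by 1.97 ± 0.43 in ARE-/- ovary, adjusted p = 0.02 (edgeR). The uterus call was lost without Uterus WT 1 or WT 3, and the ovary call without any of its WT libraries, with adjusted p up to 0.0803.

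Trgc1 (chr13:19398273-19401194), which serves Trgv6, had 112, 239 and 122 counts in WT and 167, 453 and 379 in ARE-/- uterus, and these overlapped. Its difference was 1.29 ± 0.41 log2 units, adjusted p = 0.126 (edgeR), and without Uterus ARE-/- 1 it was 1.60, adjusted p = 0.0357. In ovary it was 0.34, adjusted p = 0.637, with 51, 45 and 58 counts in WT and 55, 102 and 39 in ARE-/-. Trgc4 differed by 1.36 ± 0.50 in ARE-/- uterus, adjusted p = 0.173, and by 1.11 in ARE-/- ovary, adjusted p = 0.239. The fourth gene, Trgc3, had 29 counts over all libraries and was not tested.

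Trdc, the only delta C gene (chr14:54380308-54386325), had 207, 342 and 222 counts in WT, 407, 223 and 239 in ARE+/- and 88, 621 and 728 in ARE-/- uterus. The WT and ARE-/- libraries overlapped through Uterus ARE-/- 1. The difference was 1.11 ± 0.59 log2 units, adjusted p = 0.333 (edgeR), and without that library 1.60, adjusted p = 0.0101. In ovary Trdc had 138, 54 and 70 counts in WT, 24, 57 and 46 in ARE+/- and 93, 93 and 69 in ARE-/-, a difference of -0.06 ± 0.40 for ARE-/-, adjusted p = 0.948. Exons of Trdc overlap those of Gm43434 (1140 counts in all) and of Trdv5 on the opposite strand, and the counting did not use strand, so reads of these genes cannot be told apart.

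The authors tested the 3 genotypes together with a likelihood-ratio test. In the authors' deposited table the adjusted p was 2.29e-20 for Trac, 3.15e-16 for Trbc2 and 0.406 for Trdc in uterus, and 9.51e-16 for Trbc2 and 0.11 for Trdc in ovary. In the authors' deposited table it was under 0.05 for 15 of the 49 members with a value in uterus and for 15 of 31 in ovary.

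In ARE-/- against WT uterus, 39 members passed the low-count filter and 7 of them were called, all higher. Over all genes, 3.75% were called and 3.36% were called higher. The median log2 difference was 1.94 over the members tested and 0.04 over all genes tested, but a rare segment could pass the filter only through the genotype in which it was high. The 7 were Trac, Trbc1, Trbc2, Trgc2 and 3 of the 13 beta V segments tested. None of the 11 beta J segments tested was called by edgeR in this fit, while DESeq2 and the fit over all 18 libraries called Trbj2-5.

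Those 3 V segments were near or at 0 in WT uterus. Trbv19 had 0, 0 and 0 counts in WT, 10, 27 and 10 in ARE+/- and 29, 32 and 10 in ARE-/- uterus, so that it was at least 26.7-fold higher in ARE-/- (floor of 3 counts over the WT group) and passed with an adjusted p of 0.0219 (edgeR). Trbv13-3 had 0, 0 and 0 counts in WT, 10, 18 and 4 in ARE+/- and 14, 32 and 12 in ARE-/-, at least 21.8-fold higher, adjusted p = 0.0282. Trbv12-2 had 0, 1 and 0 counts in WT, 17, 44 and 15 in ARE+/- and 32, 34 and 26 in ARE-/-. Its ratio was 104 (95% exact interval 18.2 to 4149), adjusted p = 0.0103 (edgeR). All intervals and floors here cover counting error only and treat each count as separate. Both mates of a pair and every match of a read were counted, so the intervals are too narrow even for that error. Leaving out Uterus WT 1 or WT 3 ended all 3 of these calls, and that of Trbv13-3 also ended without Uterus ARE+/- 1, ARE+/- 2, ARE-/- 2 or ARE-/- 3.

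The most counted beta V member, Trbv13-2, had 0, 3 and 4 counts in WT, 8, 39 and 5 in ARE+/- and 35, 55 and 30 in ARE-/- uterus. Trbv16 had 0, 7 and 2, then 10, 12 and 14, then 44, 26 and 32, and Trbv3 5, 8 and 0, then 14, 12 and 2, then 17, 24 and 7. Trbv13-2 and Trbv16 did not overlap between WT and ARE-/- uterus, whereas Trbv3 did, and edgeR called none of them in the fit over the uterus libraries. DESeq2 and the fit over all 18 libraries called Trbv13-2 and Trbv16. All 21 beta V members had a count somewhere in ARE-/- uterus against 11 in WT uterus. Members were kept by their counts over all libraries, and beta V counts were 1052 in ARE-/- and 65 in WT uterus. A higher number seen in ARE-/- is thus partly built in. The count of calls over members fell to 2 without Uterus WT 1 or WT 3 and to 5 without ARE-/- 3, and was 12 without ARE-/- 1, when Trbv4, Trbv5, Trdc, Trgc1 and Trgv2 were added. Exons of Trbv4 and Trbv5 overlap those of 5830405F06Rik on the same strand.

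In ARE+/- against WT uterus 2 of the 39 members tested were called, Trac and Trbv12-2, both higher, where 1.14% of all genes were called and 1.08% called higher. The median was 1.00 log2 units over the 39 members tested against 0.01 for all genes, with the same limit from the filter. Trbv12-2 had an adjusted p of 0.0296 (edgeR), and no member was called without Uterus WT 1, WT 3, ARE+/- 2 or ARE+/- 3. Between ARE-/- and ARE+/- uterus, edgeR called none of the members and 0% of all genes. In that comparison 9 members had an unadjusted p under 0.05, and DESeq2 called 2, Trac and Trbc2.

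In ARE-/- against WT ovary, 34 members were tested and 14 were called, all higher, where 10.5% of all genes were called and 6.31% called higher. The median was 2.35 log2 units over the members tested and 0.02 over all genes. As in uterus, a rare segment could pass the filter only through the genotype in which it was high, which can raise such medians. Beta J segments were the largest group of calls, with 6 of 9 tested called and a median of 4.07, to which the same limit applies. The others were Trac, Trbc1, Trbc2, Trgc2, Trgv2 and 3 of 9 beta V segments tested, while edgeR called none of 7 alpha V segments tested (median 0.71).

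The beta J segments belong to a cluster before each beta constant gene. Of the edgeR calls, Trbj2-7 alone was of the second cluster and the others were of the first. DESeq2 also called Trbj2-1, Trbj2-4 and Trbj2-6 of the second cluster in ARE-/- ovary. Trbj1-2 had 4, 3 and 1 counts in WT ovary, 12, 2 and 12 in ARE+/- and 36, 113 and 10 in ARE-/-, with an adjusted p of 0.0321. Trbj2-7 had 0, 3 and 3 counts in WT, 10, 7 and 22 in ARE+/- and 29, 62 and 16 in ARE-/-, adjusted p = 0.0248 (edgeR). In both segments all ARE-/- libraries lay above WT, and Ovary ARE-/- 3 was highest. Trbj1-3, Trbj1-4 and Trbj1-6 had low WT counts and ratios of 60.6 (95% exact interval 10.5 to 2433), 26.9 (7.1 to 228) and 20.5 (6.71 to 102), with adjusted p of 0.0114, 0.0291 and 0.0485 (edgeR). Trbj1-1 had 0, 2 and 6 counts in WT and 53, 59 and 10 in ARE-/- ovary, adjusted p = 0.0311.

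The V segments that edgeR called in ovary were partly others than those of uterus, which is no test of a difference between tissues. Trbv3 had 2, 0 and 0 counts in WT, 9, 5 and 8 in ARE+/- and 32, 62 and 12 in ARE-/- ovary, a ratio of 51.8 (95% exact interval 14 to 434) and an adjusted p of 0.0128 (edgeR). Trbv17 had a ratio of 26.4 (6.97 to 224) in ovary, adjusted p = 0.0367. It had 8 counts in WT and 81 in ARE-/- uterus, where DESeq2 called it. Trbv19, called in uterus as well, had 0, 0 and 0 counts in WT, 6, 16 and 16 in ARE+/- and 12, 26 and 3 in ARE-/- ovary, at least 13.4-fold higher, adjusted p = 0.0313. Trbv12-2 had 17, 2 and 6 counts in WT and 20, 9 and 31 in ARE-/- ovary, and these overlapped. Trgv2, a gamma V segment that joins to Trgc2, had 4, 9 and 5 counts in WT, 9, 9 and 11 in ARE+/- and 29, 43 and 24 in ARE-/- ovary, and rose by 2.38 ± 0.55 log2 units, adjusted p = 0.0244.

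Most of these ovary calls depended on single libraries. The count was 4 without Ovary WT 1 or WT 3, 6 without ARE-/- 2, 7 without ARE-/- 3, 9 without WT 2 and 15 without ARE-/- 6. Trac, Trbc1 and Trbc2 held in every such fit. The J and V segments and Trgc2 and Trgv2 each lost the call in at least 1 of them, Trbv3 without Ovary WT 3 alone. In ARE+/- against WT ovary, 2 of 34 members were called, Trbc1 and Trbc2, where 1.71% of all genes were called and 1.35% called higher. Between ARE-/- and ARE+/- ovary edgeR called no member and 0.0491% of all genes, 10 members had an unadjusted p under 0.05, and DESeq2 called 1, Trgc2.

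**Figure D3:**
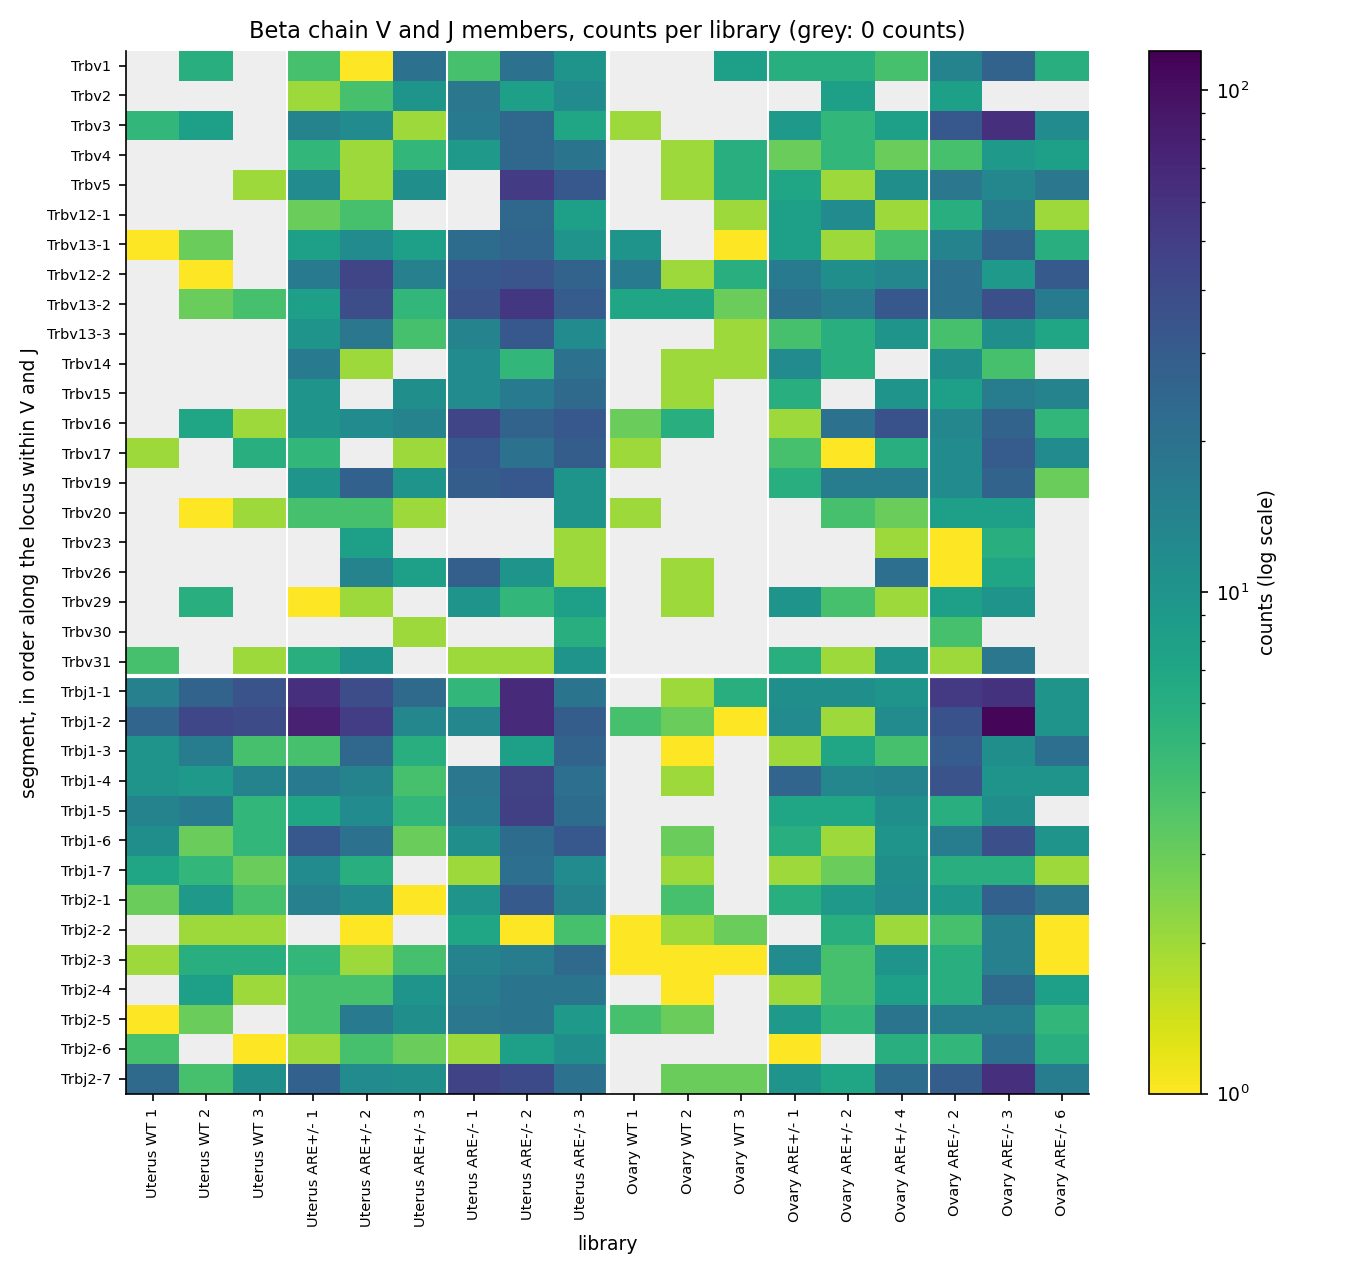
Counts of the beta V and J members (rows, in order along the locus within V and J) in the 18 libraries (columns), on a colour scale of counts with 0 in grey. WT uterus columns are filled for J segments but mostly grey for V segments, and WT ovary columns are sparse for both.

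Tissues differed among WT mice in which segments they held. Of 52 members tested in the fit over all 18 libraries, 18 were called: 14 lower and 4 higher in WT ovary than in WT uterus, where 25.2% of all genes were called, 11.9% lower and 13.3% higher. The median was -1.14 log2 units over the members tested and -0.02 over all genes. Trbc1 fell by 2.51 on the log2 scale (SE 0.35, adjusted p = 8.79e-05) and Trbc2 by 2.17 (SE 0.32, adjusted p = 0.000138, edgeR). Trac did not pass, at -0.55 ± 0.53, adjusted p = 0.501, with 15, 41 and 38 counts in uterus and 35, 10 and 20 in ovary.

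The other segments lower in WT ovary were 6 of 12 beta J segments tested and 6 of the gamma and delta chains. Trbj1-5, a joining segment of the first beta cluster, had 14, 17 and 5 counts in WT uterus and 0, 0 and 0 in WT ovary (adjusted p = 0.00439), and Trbj1-2 had 25, 43 and 40 against 4, 3 and 1 (adjusted p = 0.0103, edgeR). Trgc1 fell by 1.64 on the log2 scale (SE 0.42, adjusted p = 0.00844) and Trgc2 by 1.27 (SE 0.36, adjusted p = 0.0167). Trdc fell by 1.59 (SE 0.55, adjusted p = 0.044), Trdv4 by 2.37 (SE 0.81, adjusted p = 0.0425), Trgv6 by 2.88 (SE 0.96, adjusted p = 0.0377) and Trgj1 by 2.65 (adjusted p = 0.0372).

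With single libraries left out, the tissue comparison gave 10 to 20 called members, 10 without Uterus WT 1 and 11 without Uterus WT 2, Uterus WT 3 or Ovary WT 3. Trbc1, Trbc2, Trgc1, Trbj1-2, Trbj1-4, Trbj1-5 and Trav7n-6 kept their calls in all 18 such fits, and Trgc2 lost it without Ovary WT 3. Trdc and Trdv4 each lost the call in 14 of them, and Trgv6 and Trgj1 without any of the 6 WT libraries. Natural killer cell markers moved the same way: all 10 of a fixed list (Ncr1, Eomes, Prf1 and others) were lower in WT ovary, with summed levels of 48.7 to 73.7 CPM in WT uterus and 4.06 to 7.32 CPM in WT ovary, and their part in the difference was not tested.

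In WT uterus, beta constant transcripts came with few V transcripts. The beta C genes had 473, 533 and 390 counts and the beta V members 12, 35 and 18, that is 2.54, 6.57 and 4.62 V counts per 100 C counts. The ratio was 14.9, 21.7 and 19.3 in ARE+/- and 17.6, 25.3 and 20.5 in ARE-/- uterus. It was 46.2, 26.0 and 38.7 in WT ovary, 28.8, 34.2 and 33.3 in ARE+/- and 25.0, 25.2 and 24.6 in ARE-/- ovary. WT uterus thus lay below every other group, without overlap, and the WT ovary range reached highest.

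Beta J segments did not share that shortfall. WT uterus had 26.4, 28.3 and 33.9 J counts per 100 C counts, against 9.78, 25.3 and 16.8 in ARE-/- uterus and 10.8, 26.0 and 15.1 in WT ovary. The first J cluster made up 73.6, 78.8 and 80.3% of the beta J counts in WT uterus, 37.1, 67.4 and 61.7% in ARE-/- uterus and 40.0, 48.2 and 50.0% in WT ovary. It was 78.9, 76.0 and 57.4% in ARE+/- uterus, 61.9, 56.2 and 47.7% in ARE+/- ovary and 70.8, 58.0 and 53.4% in ARE-/- ovary. WT uterus overlapped ARE+/- uterus on that share and lay above the other groups. Natural killer markers did not follow the genotypes of uterus: 2 of the 10 were called higher (Gzma and Klrk1) and 1 lower (Klra8) in ARE-/- uterus, with sums of 41.8 to 85.1 CPM. In ARE-/- ovary 8 of the 10 were called higher, with sums of 20.4 to 34.4 CPM. Their part in the V and J ratios was not tested.

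**Figure D4:**
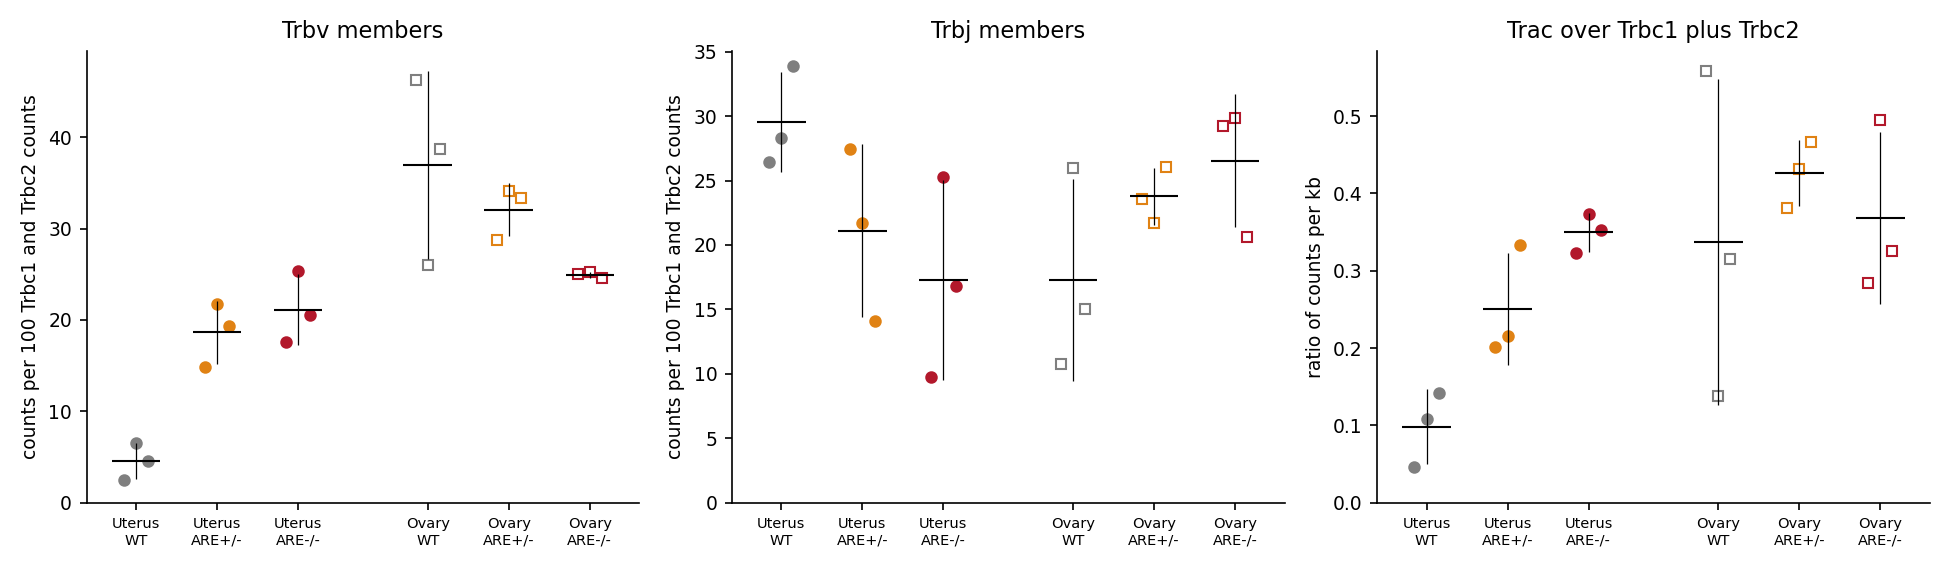
Beta V counts (left) and beta J counts (middle) per 100 beta constant counts, and the ratio of Trac to Trbc1 plus Trbc2 per kilobase (right), in each library (points) by tissue and genotype, with group means and SD (lines; n = 3 libraries). WT uterus is lowest for V (2.54 to 6.57) and not for J (26.4 to 33.9).

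Repertoire spread was described as the number of beta V segments expected among 12 counts drawn from a library, a number that does not grow with depth. It was 4.0, 6.4 and 5.6 in WT uterus and 8.1, 8.2 and 8.7 in ARE-/- uterus, without overlap, and 5.0, 7.3 and 6.5 in WT ovary against 8.6, 8.3 and 7.2 in ARE-/- ovary, with overlap. ARE+/- lay at 7.92 ± 0.59 in uterus and 7.94 ± 0.26 in ovary. For alpha V segments at 8 counts it was 4.61 ± 1.42 in WT and 7.15 ± 0.15 in ARE-/- uterus, and 5.89 ± 0.36 and 7.0 ± 0.46 in ovary. WT libraries had the fewest V counts, and both mates of a pair and every match of a read were counted, so that 12 counts can come from fewer fragments.

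The leading beta V segment differed between groups and libraries. Over the libraries of a group, the most counted one in ARE-/- uterus was Trbv13-2 with 120 of 1052 V counts, 11.4%, and in ARE-/- ovary Trbv3 with 106 of 721, 14.7%. In WT they were Trbv3 with 13 of 65 counts, 20.0%, in uterus and Trbv12-2 with 25 of 106, 23.6%, in ovary. Within single libraries the leading segment took at most 13.6% in ARE-/- uterus, 20.3% in ARE+/- uterus and 22.0% in ARE-/- ovary, where in Ovary ARE-/- 6 it was Trbv12-2 with 31 counts beside 12 of Trbv3. Of the 25 Trbv12-2 counts of WT ovary, 17 came from Ovary WT 1. Trbv12-2 was called higher in WT ovary than in WT uterus, by 4.18 ± 1.08 log2 units (adjusted p = 0.00934, edgeR), and that call was lost without Ovary WT 1.

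Segments that alpha and delta chains share, with dv in their symbols, were counted as alpha. Of the counts of the 3 delta V members in uterus, most came from Trdv4. In uterus it made up 91.7, 82.3 and 91.8% of the counts of delta V members in WT, 90.7, 100 and 100% in ARE+/- and 100, 92.4 and 96.3% in ARE-/-, where the 100 rests on the 8 counts of Uterus ARE-/- 1. Its counts were 88, 102 and 45 in WT and 8, 169 and 262 in ARE-/- uterus, a difference of 1.11 ± 0.86 log2 units, adjusted p = 0.516 (edgeR). In ovary they were 12, 10 and 25 in WT and 18, 17 and 5 in ARE-/-, adjusted p = 0.855. Its share in ovary was 71.4 to 100% except in Ovary ARE-/- 6, where it was 33.3% of 15 counts. Trdj2, the most counted delta J segment, followed the same libraries, with 11, 10 and 8 counts in WT and 0, 41 and 53 in ARE-/- uterus.

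Trgv6 and Trgv2 had the most gamma V counts in uterus. Trgv6 made up 50.8, 49.4 and 57.1% of gamma V counts in WT uterus, 25.8, 30.5 and 25.6% in ARE+/- and 13, 44.4 and 32% in ARE-/- uterus, whereas Trgv2 made up 26.2, 29.6 and 23.8%, then 57.3, 45.8 and 53.8%, then 43.5, 34.3 and 37.6%. Among uteri, WT was the group in which Trgv6 was the larger in all 3 libraries, and both shares separated WT from each altered genotype. In counts, Trgv6 had 31, 40 and 24 in WT and 6, 79 and 57 in ARE-/- uterus (0.75 ± 0.72 log2 units, adjusted p = 0.616), and Trgv2 16, 24 and 10 against 20, 61 and 67 (1.77, adjusted p = 0.129, edgeR). In ovary Trgv2 made up 17.4, 45.0 and 26.3% in WT and 54.7, 57.3 and 72.7% in ARE-/-, on 19 to 75 counts per library. Trgv4 and Trgv1, segments of circulating and lymphoid gamma delta T cells, had 155 and 80 counts in all. In single ovary libraries of few counts they took large shares, Trgv4 56.5% in Ovary WT 1 and 44.0% in Ovary ARE+/- 2, and Trgv1 40.0% in Ovary WT 2, where Trgv6 had no count. Exons of Trgv4 overlap those of Gm31887 on the opposite strand.

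**Figure D5:**
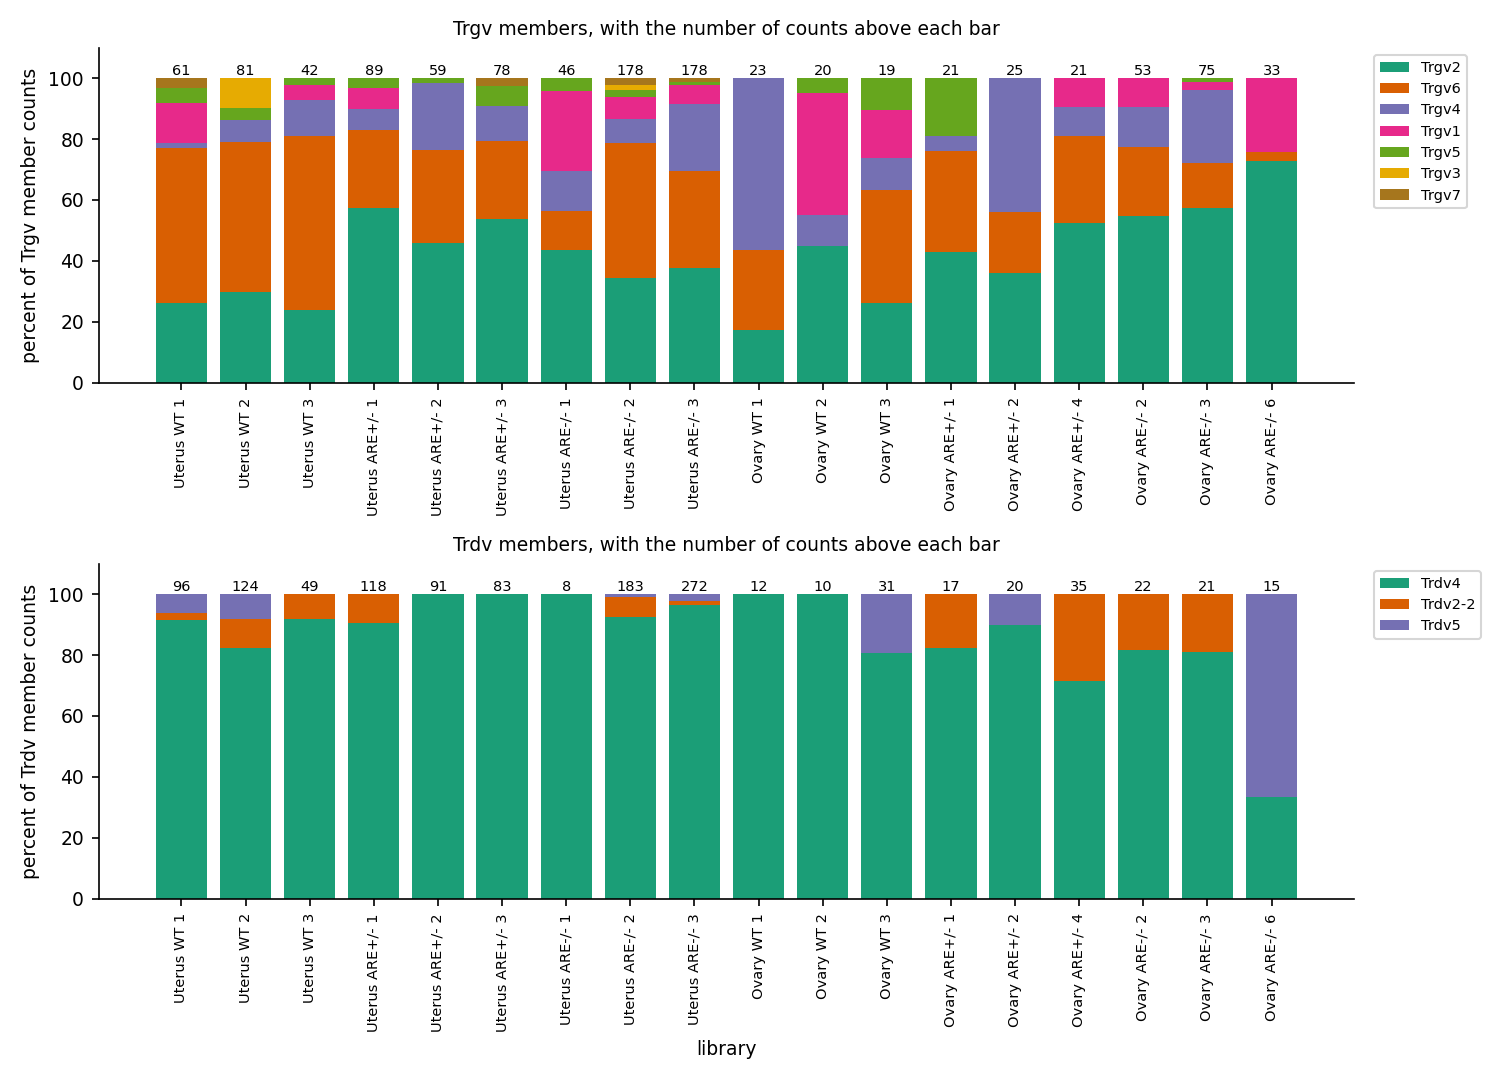
Percent of gamma V (Trgv, upper) and delta V (Trdv, lower) member counts taken by each segment in the 18 libraries, with the number of counts above each bar. Trdv4 fills most delta bars in uterus, and the Trgv6 part of the gamma bars is largest in WT uterus (49.4 to 57.1%).

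Set against the conventional chains, gamma and delta constant counts per 100 alpha and beta constant counts were 81.6, 126 and 101 in WT uterus, 81.5, 41.9 and 62.5 in ARE+/- and 20.3, 71.1 and 72.2 in ARE-/- uterus. In ovary they were 182, 140 and 136 in WT, 18.6, 35.4 and 16.3 in ARE+/- and 25.1, 19.1 and 35.4 in ARE-/-. WT ovary lay well above both altered genotypes, and in uterus the lowest WT library was level with ARE+/- 1 and above the other altered libraries.

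Alpha V segments were led by a few segments of repeated blocks that were counted mainly in ovary. Trav5d-4, with the same counts as its copy Trav5n-4, had 0, 6 and 2 counts in WT uterus and 12, 27 and 6 in WT ovary, 28, 24 and 22 in ARE+/- ovary and 5, 18 and 57 in ARE-/- ovary. Trav4d-4, identical in counts to Trav4n-4, had 0, 0 and 0 in WT uterus and 2, 16 and 9 in WT ovary, and Trav7n-6 had 0, 0 and 0 against 10, 10 and 4. Trav4d-4, Trav4n-4 and Trav7n-6 were called higher in WT ovary, with adjusted p of 0.0224, 0.0224 and 0.013 (edgeR), and edgeR called no alpha V segment between genotypes, where DESeq2 called 1, Trav9-1, in ARE-/- against WT uterus. Trav7n-6 kept its call with any library left out, and Trav4d-4 lost it without Uterus WT 1, 2 or 3 or Ovary WT 2.

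A set picked after the values were seen (Trav5d-4, Trav4d-4, Trav6d-7, Trav7n-6 and Trav9d-2 with their copies) made up 73.5, 83.1 and 64.2% of alpha V counts in WT ovary, 62.3, 57.7 and 57.5% in ARE+/- ovary and 25.4, 16.4 and 64.3% in ARE-/- ovary. In uterus it made up 0, 57.9 and 50.0% in WT, 27.1, 0 and 0% in ARE+/- and 8.05, 4.48 and 3.16% in ARE-/-. The WT uterus shares rest on 15, 38 and 8 alpha V counts, and 2 of them lay near those of ARE+/- ovary. The ARE-/- ovary with the high share, Ovary ARE-/- 6, also had the lowest Trac count of its group, 124, and the lowest sum of fat cell markers, 106 CPM against 1560 and 2186 in the other ARE-/- ovaries. WT ovaries had 93.0 alpha V counts on average beside 21.7 of Trac and 5.0 of alpha J segments, whereas ARE-/- uteri had 187 beside 386 and 97.7.

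Alpha J counts were thin and scattered. The most counted were Traj22 with 37, Traj23 with 31, Traj27 and Traj58 with 28 each and Traj17 with 27 over all 18 libraries. An alpha J member was seen in a median of 6 libraries (3 to 10) and a beta J member in 16 (13 to 18). The number of the 36 alpha J members with a count was 13 in WT uterus, 28 in ARE+/- and 35 in ARE-/- uterus, and 7, 25 and 27 in the same genotypes of ovary. For the 78 alpha V members it was 18, 52 and 65 in uterus and 25, 63 and 70 in ovary. Members were kept by their counts over all libraries, out of 60 alpha J and 128 alpha V segments matching by name. Alpha J counts themselves were 34, 111 and 293 in uterus and 15, 95 and 131 in ovary. The order of the numbers seen is thus partly built in. The segments of invariant receptors were rare: Trav11 and Traj18, of invariant natural killer T cells, had 26 and 12 counts in all (Trav11 the same as its copy Trav11d), and Trav1 and Traj33, of mucosal-associated invariant T cells, 14 and 15. These counts were too few to compare groups, and 6 of the 14 Trav1 counts came from WT uterus.

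The difference of the ARE-/- effect between ovary and uterus was tested as an interaction, and edgeR called none of 52 members, where 0.169% of all genes were called, with 10 members at an unadjusted p under 0.05. Trbc1 came nearest among constant genes, with a rise larger by 1.74 ± 0.46 log2 units in ovary, adjusted p = 0.13, and Trac differed by -0.29 ± 0.72, adjusted p = 0.91. DESeq2 called 3, Trbc1, Trbj1-2 and Trbv12-2. For the ARE+/- effect edgeR called none of 52 members and DESeq2 none of the 38 it tested, where 0.00375% of all genes were called, with 6 members at an unadjusted p under 0.05 in edgeR.

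Genes that work with the receptor rose alongside its constant genes. In a list of 18 genes of the receptor complex and its signaling, 15 were called higher in ARE-/- uterus and 15 in ARE-/- ovary. Over all genes tested, 3.36% and 6.31% were called higher. The list sums were 57.5 to 66.4 CPM in WT and 162 to 248 CPM in ARE-/- uterus, and 38.8 to 45.9 and 85.6 to 171 CPM in ovary. Cd3d, a chain of the CD3 complex that carries the receptor's signal, rose by 4.12 ± 0.38 log2 units in ARE-/- uterus and by 3.43 ± 0.45 in ARE-/- ovary, and Cd247, the zeta chain, was not called in either, at 0.52 and 0.05. All 3 coreceptor genes were called higher in both tissues, Cd8a by 5.36 ± 0.38 and 4.05 ± 0.31 and Cd4 by 2.39 ± 0.39 and 2.00 ± 0.37. Genes of the recombination step (Rag1, Rag2, Dntt and Ptcra) summed to at most 0.51 CPM in any library, and Rag2 had no count.

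Markers of other cells moved in part with these segments. B cell markers summed to 11.4 to 17.3 CPM in WT and 22.4 to 50.5 CPM in ARE-/- uterus, with none of 8 called, and to 12.4 to 14.6 and 18.2 to 82.9 CPM in ovary, with 1 of 8 called. None of 5 genes of lymph node stroma and vessels was called in ARE-/- uterus, and 1 of 4 tested was called in ARE-/- ovary. Such single calls stand beside the 6.31% of all genes called higher in that tissue. All 8 fat cell markers and 5 of 6 red cell markers were called higher in ARE-/- uterus. In ARE-/- ovary none of the 8 fat cell markers and none of 5 red cell markers tested was called. Fat cell sums were yet 1560, 2186 and 106 CPM in ARE-/- ovary against 193 to 282 CPM in WT ovary. The median log2 difference was 2.63 over the 8 markers. Ovary ARE-/- 3, highest in fat among ovaries, had the lowest sum of ovary markers, 2004 CPM against 6694 to 9778 CPM in WT ovary. Without Uterus ARE-/- 1, the library highest in fat and red cell markers, Trac, Trbc1 and Trbc2 were still called in ARE-/- uterus. The other ARE-/- uteri also lay above WT, at 2208 and 1234 CPM of fat and 1377 and 882 CPM of red cell markers. WT uteri held 81 to 109 and 101 to 232 CPM. The part of these cells in the segment differences was not tested.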

How the data were processed

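Total RNA of 18 uterus and ovary samples was sequenced. Per the file headers, the authors counted reads per gene with featureCounts 2.0.4 on the GENCODE M32 annotation, counting each mate, each match of a multiply matched read and each overlapped gene, without strand; the deposited counts are raw. The submitters' processing notes name STAR, DESeq2 and mm10, a build that differs from the headers' annotation. The authors also deposited adjusted p-values of a likelihood-ratio test, in 1 table per tissue. Segments under older gamma symbols (10) were mapped through RefSeq synonyms. GENCODE M21 transcripts were matched by gene identifier for 172 of 172 members.

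Counts were fitted with edgeR 4.0.16 (R 4.3.3; TMM, filterByExpr, robust quasi-likelihood), over the 9 libraries of a tissue for genotypes and over all 18 for tissues and interactions. The Benjamini-Hochberg threshold was 0.05 over all genes tested, and the procedure was tested on simulated data. Alternatives used DESeq2 1.42.0, other scalings, no filter, halved counts, all libraries in 1 fit, a replicate block and each library left out. Python 3.11.15 with pandas 2.3.3 and numpy 2.4.6 made the sums. Figures used matplotlib 3.10.9.

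Members and lists were chosen with earlier results of these data known. Named were all C genes, the 5 most counted V and J members per chain, segments of known invariant or resident receptors, and called members (up to 10 per contrast by size of change). Nothing in the labels says which animal a library is from, beyond the design's 3 mice per genotype, so p-values measure the spread between these libraries.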

Additional observations from a re-analysis of the deposited data

How the results depend on the processing

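Low counts limit every V and J result, since alpha segments were seen in a median of 6 libraries. Calls held under another scaling. DESeq2 gave 21 called members for ARE-/- and 6 for ARE+/- against WT uterus, and 18 and 3 against WT ovary. It gave 2 for ARE-/- against ARE+/- uterus, 1 for ARE-/- against ARE+/- ovary and 3 for the ARE-/- interaction. All 18 libraries in 1 fit gave 14 and 4 in uterus (ARE-/- and ARE+/- against WT) and 4 for ARE+/- ovary. Halved counts gave 6 for ARE-/- ovary. A replicate block gave 7 and 2 in uterus (unchanged) and 5 and 0 in ovary, for ARE-/- and ARE+/- against WT. Same-numbered libraries correlated between -0.03 and 0.34 in uterus and between -0.16 and 0.01 in ovary. In uterus the 3 pairs of ARE+/- and ARE-/- were over 0.1, and the pairs with WT ranged from -0.03 to 0.18. Pairing was not shown by these values.

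Leaving out single libraries gave 2 to 12 called members for ARE-/- and 0 to 3 for ARE+/- against WT uterus, 4 to 15 and 0 to 4 in ovary, and 10 to 20 between WT tissues. The ranges were 0 to 0 for ARE-/- against ARE+/- in each tissue and for both interactions. Trdc in ARE-/- ovary ranged from -0.32 to 0.42 over these fits, and turned positive without Ovary WT 1, without Ovary ARE-/- 6 and, at 0.27, under the replicate block. Trgc1 there ranged from -0.17, without Ovary ARE-/- 3, to 0.59.

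From constant genes alone, alpha ratios to WT in ovary were 5.95 (ARE+/-) and 11.7 (ARE-/-), and WT ovary over WT uterus turned to 0.684. From V genes alone, that alpha ratio was 4.58 and the beta one turned to 1.63, alpha ARE+/- ovary was 2.10, beta uterus 7.89 (ARE+/-) and 18.8 (ARE-/-), and delta ARE+/- ovary turned to 1.32. Without the genes under older symbols, an alternative chosen after seeing the data, gamma ARE+/- ovary turned to 1.37 and ARE-/- ovary was 3.00. The differences of segment spread, ARE-/- minus WT, on halved counts, with draws of 4 (alpha) and 5 (beta) counts in place of 8 and 12, were 0.273 and 0.597 for alpha (ovary, uterus) and 0.361 and 0.706 for beta. Both the halving and the smaller draw enter these values. The cause of the other changes was not tested.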
